A study of Mus musculus and Homo sapiens with 12 samples.

Results

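Mouse T-cell acute lymphoblastic leukaemia (T-ALL) cells taken from mice on a diet without valine were compared with the same kind of cells from mice given small amounts of valine. The comparison set the 2 libraries at 0 g/kg valine against the 4 libraries of the partly restricted diets, 2 at 0.4 g/kg and 2 at 0.8 g/kg. It covered every gene whose FPKM averaged 1 or more in the 8 mouse libraries, which was 9943 of the 10430 genes listed. FPKM counts sequenced fragments relative to gene length and to the library's total, so it allows for both. The other 2 mouse libraries, from the control diet with 8 g/kg valine, were not compared. They entered the filter on mean FPKM and the estimate of the spread between libraries, and a few of their values are given for reference.

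The series asked how NOTCH1 signalling and dietary valine affect RNA levels in T-ALL, with 4 libraries of a human cell line beside the 8 mouse libraries. Per the labels, C57BL/6 mice carried NOTCH-delta E tumours passed on by secondary transplantation, that is, leukaemias driven by an active form of NOTCH1. Leukaemic cells were sorted from the spleen by their GFP marker after 3 weeks on the diets. All groups shared strain, tumour type, organ and time, and differed in valine. The 0 g/kg group ate the valine-deficient diet, while the 0.4 and 0.8 g/kg groups ate that diet and had valine added to their drinking water at 0.4 or 0.8 g/L, so the amounts in g/kg are the group labels rather than the feed content. Each diet had 1 library named TALL2 and 1 named TALL3. What the names stand for, and whether a library came from 1 animal, is not stated in the labels. A p-value here thus reflects the spread from library to library and no more, and that spread may be technical.

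Valine is an essential branched-chain amino acid, so a mammal must obtain it from food. When an amino acid runs short, uncharged transfer RNAs activate the kinase GCN2 (gene Eif2ak4), which phosphorylates the translation factor eIF2. General translation then slows while translation of the transcription factor ATF4 goes up, and ATF4 raises transcription of genes for amino acid synthesis, amino acid uptake and transfer RNA charging. Amino acids also act through the kinase complex mTORC1, which promotes ribosome production, nucleotide synthesis and cell growth.

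Reads recovered from the FPKM values numbered between 14222895 and 37687253 per library over the 6 libraries compared. Replicate libraries of a diet differed beyond counting noise. The T-cell identity of the sorted cells was visible in all 6 libraries. Cd3d, a subunit of the T-cell receptor complex, lay between 209 and 281 FPKM, and the thymocyte surface protein Thy1 lay between 798 and 1026 FPKM. The 26 thymocyte and T-cell marker genes together held 5601 to 7124 FPKM over all 8 mouse libraries. Of 20 B-cell and MHC class II markers, 14 were not listed, including Cd79a and Ms4a1. Markers of neutrophils, and the globin genes among the markers of red-cell precursors, differed between the diets in the sorted cells. The summed FPKM of the 19 neutrophil marker genes with deposited FPKM was 16.5 and 14.0 FPKM at 0.8 g/kg, 14.5 and 87.2 FPKM at 0.4 g/kg, and 669 and 383 FPKM at 0 g/kg. Here and below, a pair of values gives TALL2 first and TALL3 second. The TALL3 library at 0.4 g/kg thus stood above the other partly restricted libraries, and both 0 g/kg libraries stood far above all of them. In bulk RNA, fewer cells of a type and less RNA per cell cannot be told apart. The part of these markers' cells in the gene values below was not tested.

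No gene passed the test. With limma on log2(FPKM + 1), a two-sided test with Benjamini-Hochberg adjustment over 9943 genes and a threshold of 0.05, 0 genes were called between 0 g/kg and partial restriction, and the smallest adjusted p was 0.238. At an unadjusted p under 0.05 there were 661 genes, 448 higher and 213 lower at 0 g/kg, where 497 would be expected with no difference. limma-voom on the recovered reads also called 0 genes, with 488 higher and 190 lower at an unadjusted p under 0.05. The split between higher and lower depended on scaling, at 307 higher and 332 lower after median-of-ratios scaling and 251 higher and 385 lower after quantile scaling. All values below are therefore descriptions of these libraries. A fold change is a difference on the log2(FPKM + 1) scale, 0 g/kg minus the mean of the 2 partly restricted diets, and it understates changes of genes with low FPKM. Its median over all 9943 genes was 0.04.

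For each gene it was also recorded whether the groups overlapped. Both 0 g/kg libraries lay above all 4 partly restricted libraries for 1069 genes, or 10.8% of those tested, and below all 4 for 541 genes, or 5.44%. These shares are the background for the counts given for each gene group. They were 766 above and 862 below after median-of-ratios scaling, and 572 above and 1084 below after quantile scaling.

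**Figure D1:**
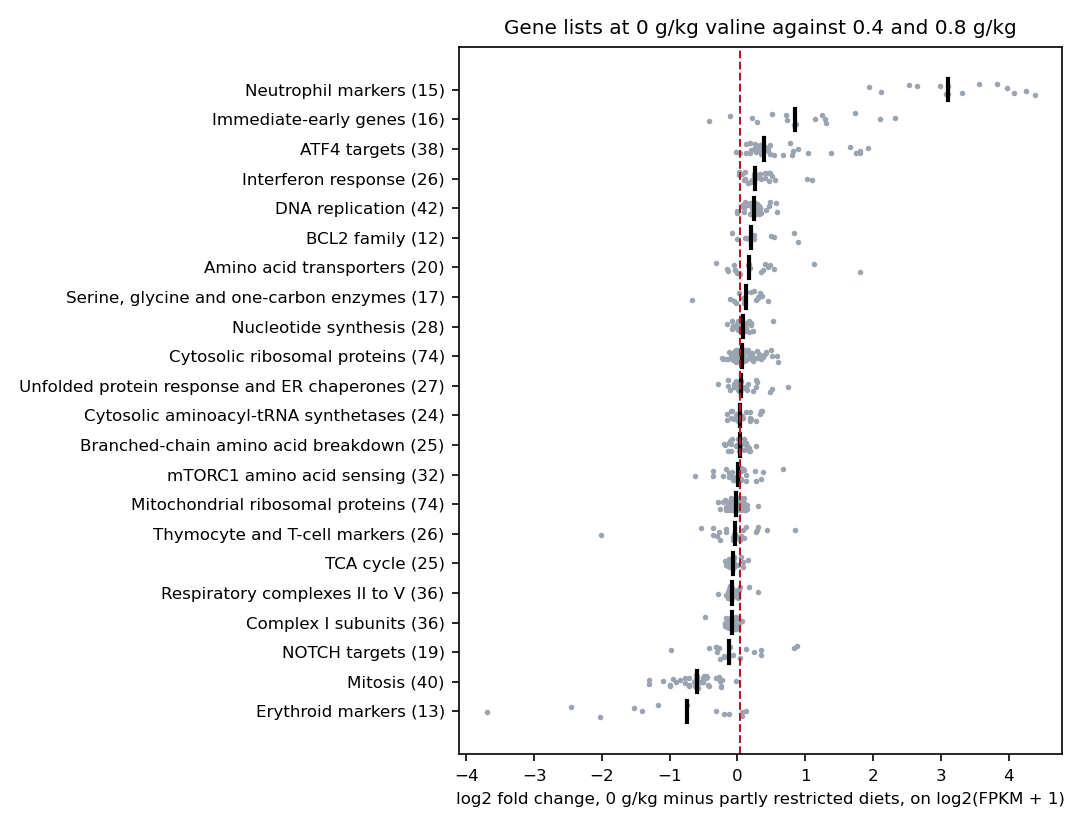
Fold changes of 22 gene lists on the log2(FPKM + 1) scale, 0 g/kg minus partial restriction. Each grey point is a gene, the black bar is the list's median, the number of genes tested stands in brackets, and the dashed line is the median of all tested genes at 0.04. Neutrophil markers, immediate-early genes and ATF4 targets have medians of 3.11, 0.85 and 0.39, and mitosis and erythroid genes of -0.60 and -0.74. Of the 15 neutrophil markers, 8 passed the filter only through the 0 g/kg libraries.

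Targets of ATF4 were higher without valine than under partial restriction in most cases. Of 49 ATF4 target genes listed, 38 were tested, and 37 of these had a positive fold change. Their median was 0.39, against 0.04 for all genes. Both 0 g/kg libraries lay above all 4 partly restricted libraries for 17 of the 38 genes (44.7%, against 10.8% of all genes) and below them for 0. The count was 13 after median-of-ratios scaling (34.2%, against 7.70% of all genes) and 16 after quantile scaling (42.1%, against 5.75%). Leaving out TALL2 at 0.8 g/kg gave 17, where the share of all genes was 14.9%. Leaving out TALL2 at 0 g/kg gave 32, where that share was 30.5%. At an unadjusted p under 0.05 there were 10 higher and 0 lower, where 4.51% of all genes were higher. No member was called. By library, the median of the 38 genes relative to the mean of the partly restricted libraries was 0.25 in TALL2 and 0.55 in TALL3 at 0 g/kg. Among the partly restricted diets the pair at 0.8 g/kg had -0.32 and 0.20, and the pair with 0.4 g/kg had 0.10 and -0.0027. The lowest of the 6 libraries was thus TALL2 at 0.8 g/kg, and the highest was TALL3 at 0 g/kg.

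The amino acid response element that ATF4 binds with its C/EBP partners has a core that can be written TGATGNAA. This string was searched on both strands in the 250 bases before each RefSeq transcription start (GRCm38.p6). It occurred in 8 of the 35 windows of 30 ATF4 targets (22.9%) and in 1134 of all 32851 windows (3.45%). The list holds genes already taken as ATF4 targets, so its larger share is no result of these libraries. Stretches of 30 bases around it are shown for 4 targets as examples of carriers that differed by various amounts. Carriers with smaller fold changes, 1 of them negative, are not shown. Capitals mark the motif, and each stretch is written 5′ to 3′ along the gene's own strand.
Asns: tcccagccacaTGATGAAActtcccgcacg
Atf3: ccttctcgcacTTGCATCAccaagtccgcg
Jdp2: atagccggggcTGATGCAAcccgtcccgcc
Pycr1: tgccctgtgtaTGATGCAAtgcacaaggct
The stretch of Asns lies at chr6:7693214-7693243 on the minus strand, with the motif 15 bases before the RefSeq start, and that of Atf3 at chr1:191183425-191183454 on the minus strand. Jdp2 has it at chr12:85599372-85599401 on the plus strand and Pycr1 at chr11:120643833-120643862 on the minus strand. The stretches of Asns, Atf3 and Jdp2 lie within the bounds of these genes in GENCODE, which has longer transcripts that start further upstream. In Atf3 the motif is on the opposite strand and so reads as TTGCATCA. A match is a description of the sequence, and windows without these letters say nothing of ATF4. The fold changes of these genes ran from 1.75 for Asns and 1.66 for Atf3, a stress-induced transcription factor, through 1.04 for Jdp2, a repressor of AP-1, to 0.38 for Pycr1, an enzyme of proline synthesis. Atf3, Jdp2 and Pycr1 were chosen for the motif after their values had been seen. Of the 4, Asns and Jdp2 had both 0 g/kg libraries above all partly restricted ones. Atf3 had 0.122 and 0.133 FPKM at 0.8 g/kg, 0.0255 and 1.5 FPKM at 0.4 g/kg, and 1.33 and 6.73 FPKM at 0 g/kg, so TALL3 at 0.4 g/kg overlapped.

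Asns, asparagine synthetase (chr6:7675169-7693254, minus strand), had 5.58 and 47.5 FPKM at 0.8 g/kg, 47.3 and 17.1 FPKM at 0.4 g/kg, and 69.2 and 84.6 FPKM at 0 g/kg. Both 0 g/kg libraries were the highest, but the partly restricted libraries ranged widely, and each diet held 1 low and 1 high library. For reference, the control diet libraries held 2.02 and 2.90 FPKM. Its mean was 76.9 ± 10.9 FPKM at 0 g/kg (SD, n = 2) and 29.4 ± 21.3 FPKM under partial restriction (SD, n = 4). The fold change was 1.75 (SE 0.80, adjusted p = 0.777 with limma), and it was 1.03 without TALL2 at 0.8 g/kg.

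Ppp1r15a, the GADD34 subunit that directs a phosphatase to eIF2 and so ends the stress response, differed more evenly. It had 11.2 and 8.61 FPKM at 0.8 g/kg, 12.0 and 19.2 FPKM at 0.4 g/kg, and 45.8 and 52.9 FPKM at 0 g/kg (fold change 1.92, SE 0.30, adjusted p = 0.298 with limma). The groups did not overlap. Stc2, a secreted glycoprotein, had 0.319 and 0.349 FPKM at 0.8 g/kg, 1.83 and 0.302 FPKM at 0.4 g/kg, and 2.98 and 6.82 FPKM at 0 g/kg (fold change 1.80, SE 0.41). Ddit3, the pro-apoptotic factor CHOP, had 10.2 and 11 FPKM at 0.8 g/kg, 8.11 and 11.5 FPKM at 0.4 g/kg, and 13.8 and 23.5 FPKM at 0 g/kg (fold change 0.78, SE 0.23). In both genes the 0 g/kg libraries were above the rest, with TALL3 the higher of the pair. Stc2 and Atf3 reached the filter of 1 FPKM only through the 0 g/kg libraries and so had to have a higher mean there. Of the other 36 targets, 16 lay above the rest.

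For 2 further targets the difference rested on 1 library. Trib3, a pseudokinase that restrains ATF4, had 1.82 and 5.84 FPKM at 0.8 g/kg, 1.23 and 3.17 FPKM at 0.4 g/kg, and 3.04 and 21.4 FPKM at 0 g/kg. Sesn2, a leucine sensor that inhibits mTORC1, had 4.43 and 5.60 FPKM at 0.8 g/kg, 2.97 and 4.35 FPKM at 0.4 g/kg, and 3.32 and 15.1 FPKM at 0 g/kg. In both, TALL2 at 0 g/kg lay within the range of the partly restricted libraries and only TALL3 stood above it. Without TALL3 at 0 g/kg the fold change of Trib3 was 0.14 in place of 1.38, and that of Sesn2 was -0.28 in place of 0.67. Atf5, an ATF4 relative, overlapped between the groups, with 18 and 97.5 FPKM at 0.8 g/kg, 48.8 and 39.3 FPKM at 0.4 g/kg, and 56.5 and 103 FPKM at 0 g/kg. The mRNA of Atf4 itself had 62.5 to 86.2 FPKM under partial restriction and 73.5 and 125 FPKM at 0 g/kg, so the groups overlapped there as well.

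**Figure D2:**
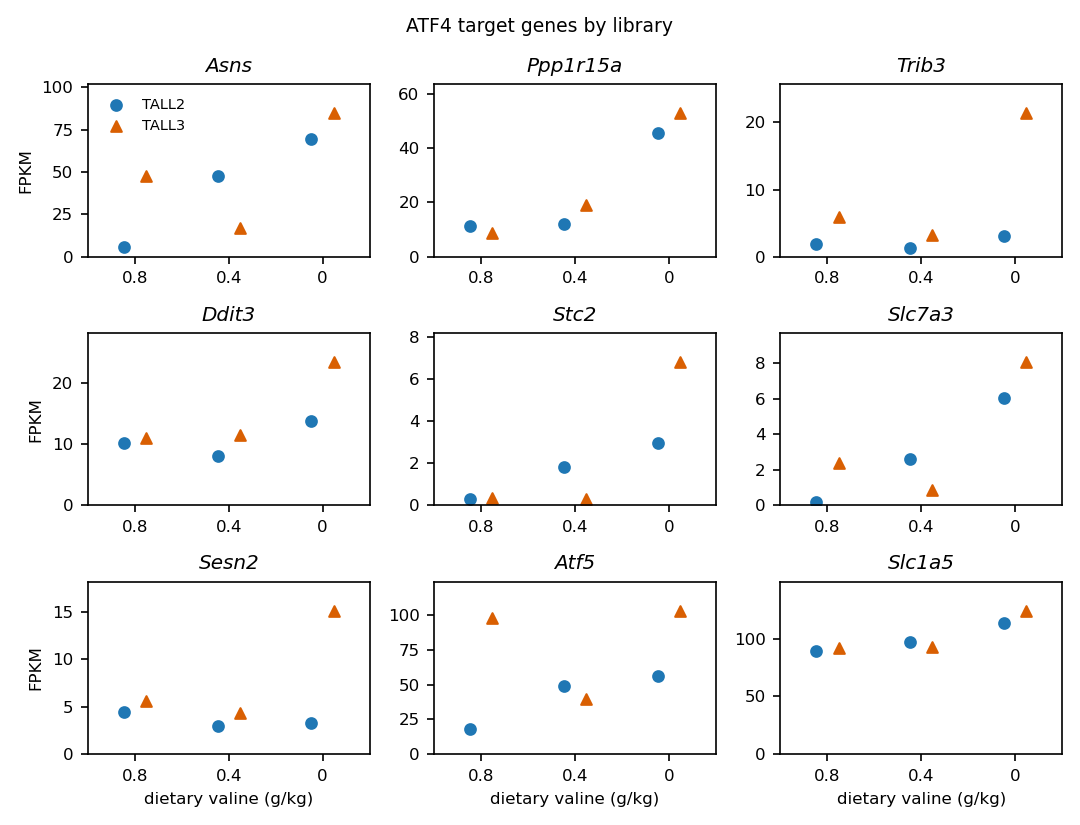
FPKM of 9 ATF4 target genes in the 6 libraries, by dietary valine in g/kg on the horizontal axis, with TALL2 as circles and TALL3 as triangles and each vertical axis starting at 0. Ppp1r15a, Stc2, Slc7a3, Ddit3, Asns and Slc1a5 have both 0 g/kg libraries on top, whereas Trib3 and Sesn2 are high only in TALL3 at 0 g/kg (21.4 and 15.1 FPKM) and Atf5 overlaps.

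Genes above ATF4 in the pathway did not share this direction. Of 17 kinases and regulators of the integrated stress response, 6 had a positive and 11 a negative fold change, with a median of -0.07. Both 0 g/kg libraries lay below the rest for 4 (23.5%, against 5.44% of all genes) and above for 1 (5.88%, against 10.8%). The count below was 7 after median-of-ratios scaling (41.2%, against 8.67%) and 6 after quantile scaling (35.3%, against 10.9%). Eif2ak4 had 6.05 to 7.26 FPKM under partial restriction and 7.56 and 6.21 FPKM at 0 g/kg, with a fold change of 0.06 (SE 0.13) that was -0.05 after quantile scaling. Eif2b2, a subunit of the eIF2B exchange factor, had 46.8 to 51.8 FPKM under partial restriction and 46.0 and 39.5 FPKM at 0 g/kg (fold change -0.22, SE 0.09).

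Amino acid transporters held several of the larger differences, and 7 of the 20 tested were also in the ATF4 list. Of the 20, 13 had a positive and 7 a negative fold change, with a median of 0.16, which was 0.03 with 10 genes in each direction after quantile scaling. Both 0 g/kg libraries lay above the rest for 8 of 20 (40%, against 10.8% of all genes). That count was 6 after median-of-ratios scaling (30%, against 7.70%) and 5 after quantile scaling (25%, against 5.75%). Slc7a3, a carrier of cationic amino acids, had 0.20 and 2.39 FPKM at 0.8 g/kg, 2.58 and 0.865 FPKM at 0.4 g/kg, and 6.02 and 8.07 FPKM at 0 g/kg (fold change 1.80, SE 0.47). Slc1a5, a glutamine carrier, had 89.5 to 97.0 FPKM under partial restriction and 114 and 124 FPKM at 0 g/kg. Its fold change of 0.35 (SE 0.07) was small but came from groups with little spread. Slc7a5 and Slc3a2 encode the light and the heavy chain of the carrier LAT1, which brings valine and other large neutral amino acids into the cell. Slc7a5 had 79.0 to 132 FPKM under partial restriction and 137 and 149 FPKM at 0 g/kg (fold change 0.37, SE 0.21). Slc3a2 had 61.0 to 83.0 FPKM under partial restriction and 89.9 and 119 FPKM at 0 g/kg (fold change 0.45, SE 0.16). Slc38a2, another neutral amino acid carrier, had 49.0 to 63.3 FPKM under partial restriction and 64.9 and 93.7 FPKM at 0 g/kg (fold change 0.49, SE 0.17). In all 3 the 0 g/kg libraries were above the rest, by a narrow margin in Slc7a5 and Slc38a2. Every transporter named here is also in the ATF4 list.

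Enzymes that make serine and carry one-carbon units had a median of 0.12 over 17 genes, with 13 positive and 4 negative, and 6 had both 0 g/kg libraries above the rest (35.3%, against 10.8% of all genes). That count was 3 (17.6%, against 7.70%) after median-of-ratios scaling and 4 (23.5%, against 5.75%) after quantile scaling. Mthfd2, a mitochondrial folate enzyme, had 50.7 to 86.4 FPKM under partial restriction and 87.9 and 105 FPKM at 0 g/kg (fold change 0.46, SE 0.20). Psat1, the transaminase of serine synthesis, had 116 to 178 FPKM under partial restriction and 180 and 183 FPKM at 0 g/kg. Psph, the last enzyme of that route, had 9.99 to 14.5 FPKM under partial restriction and 15.4 and 16.2 FPKM at 0 g/kg. The lowest partly restricted library was TALL2 at 0.8 g/kg in each of these 3 genes. All 3 are also in the ATF4 list, as is Phgdh, another member above the rest, so the lists are not separate evidence.

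Genes that handle valine itself did not stand apart as a group, and the 0 g/kg libraries differed in direction from each other. The 25 genes of branched-chain amino acid breakdown had a median of 0.03, with 15 positive and 10 negative, and the median was 0.21 in TALL2 and -0.14 in TALL3 at 0 g/kg. Of the 25, 0 genes had both 0 g/kg libraries above the rest (10.8% of all genes did). Both lay below for 1 gene (4%, against 5.44% of all genes), which is near the background. Bcat1 and Bcat2 encode the cytosolic and the mitochondrial branched-chain aminotransferase. Bcat1 had 5.40 to 9.97 FPKM under partial restriction and 8.82 and 7.60 FPKM at 0 g/kg, and Bcat2 had 24.9 to 30.4 FPKM and then 30.8 and 26.1 FPKM. Bckdk, the kinase that inhibits branched-chain keto acid dehydrogenase, had 28.5 to 49.8 FPKM and then 44.8 and 40.9 FPKM. All 3 overlapped. The gene below the rest was Hibadh, an enzyme of the valine branch, with 50.7 to 54.1 FPKM under partial restriction and 49.7 and 42.1 FPKM at 0 g/kg (fold change -0.18, SE 0.08).

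Valyl-tRNA synthetase did not stand apart either. Vars, the cytosolic enzyme that charges valine transfer RNA, had 145 to 160 FPKM under partial restriction and 161 and 158 FPKM at 0 g/kg (fold change 0.06, SE 0.07). Vars2, its mitochondrial counterpart, had 17.6 to 21.1 FPKM and then 18.6 and 19.6 FPKM (fold change -0.01, SE 0.11). The 24 cytosolic synthetases had a median of 0.04, equal to that of all genes, and it was 0.00 after median-of-ratios scaling. Sars, which charges serine transfer RNA, had 57.6 to 75.6 FPKM under partial restriction and 81.6 and 85.4 FPKM at 0 g/kg (fold change 0.27, SE 0.11). It was the 1 cytosolic synthetase with both 0 g/kg libraries above the rest (4.17%, against 10.8% of all genes).

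Sensors and regulators upstream of mTORC1 were evenly split without rescaling, with 16 positive and 16 negative fold changes of 32 and a median of 0.00. The split depended on scaling. It was 13 positive and 19 negative after median-of-ratios scaling (median -0.04), and 10 positive and 22 negative after quantile scaling (median -0.07). Sesn1, a relative of Sesn2, had 10.7 to 12.6 FPKM under partial restriction and 9.84 and 7.62 FPKM at 0 g/kg (fold change -0.37, SE 0.13). Lamtor2, a subunit of the lysosomal scaffold that anchors the pathway, had 48.8 to 58.2 FPKM and then 42.2 and 37.9 FPKM (fold change -0.36, SE 0.09). Nprl3, a subunit of the inhibitory GATOR1 complex, had 9.0 to 9.64 FPKM and then 10.9 and 11.9 FPKM (fold change 0.27, SE 0.09). Each of the 3 kept its groups apart, in different directions, but they were named for the smallest p in the list. Of the 32, both 0 g/kg libraries lay above the rest for 1 (3.12%, against 10.8% of all genes) and below for 3 (9.38%, against 5.44%). The count below was 7 after median-of-ratios scaling (21.9%, against 8.67%) and 10 after quantile scaling (31.25%, against 10.9%).

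Mitosis genes were lower without valine than under partial restriction. All 40 tested genes of the mitosis list had a negative fold change, with a median of -0.60, and both 0 g/kg libraries lay below all 4 partly restricted libraries for 26 of them (65%, against 5.44% of all genes). That count was 30 after median-of-ratios scaling (75%, against 8.67% of all genes) and 29 after quantile scaling (72.5%, against 10.9%). At an unadjusted p under 0.05, 29 of the 40 were lower (2.14% of all genes were), and no gene was called. The median was -0.84 in TALL2 and -0.35 in TALL3 at 0 g/kg, against a range of -0.31 to 0.21 over the partly restricted libraries. TALL2 at 0.8 g/kg was the lowest of those, and without it 38 of 40 genes lay below the rest (9.19% of all genes did). For reference, the summed FPKM of the 40 genes was 1588 and 1801 in the control diet libraries. It was 1834 to 2484 under partial restriction, and 1178 and 1650 at 0 g/kg. The control libraries thus also lay below the partly restricted ones in this sum.

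Cenpf, a kinetochore protein (chr1:189640606-189688086, minus strand), had 75.1 and 94.6 FPKM at 0.8 g/kg, 91.3 and 76.9 FPKM at 0.4 g/kg, and 27.0 and 41.3 FPKM at 0 g/kg. The fold change was -1.31 (SE 0.19, adjusted p = 0.298 with limma), with no overlap between the groups. Ccnb2, a B-type cyclin that activates CDK1, had 84.7 and 133 FPKM at 0.8 g/kg, 102 and 113 FPKM at 0.4 g/kg, and 33.2 and 55.0 FPKM at 0 g/kg (fold change -1.30, SE 0.25). The cyclin, like Cenpf, separated the groups. Ccnb1, the other main mitotic cyclin, had 14.1 to 20.2 FPKM under partial restriction and 7.38 and 10.3 FPKM at 0 g/kg (fold change -0.91, SE 0.19). Bub1b, a spindle checkpoint kinase, had 68.4 to 96.8 FPKM and then 45.4 and 55.9 FPKM (fold change -0.71, SE 0.14). In all 4 genes TALL2 was the lower of the 0 g/kg libraries, and the groups did not overlap. For Cenpf, Ccnb2 and Bub1b, separate ranges were a condition of the rule that named them, so this is no added result. Aspm, a spindle pole protein, and Cdkn3, a cell-cycle phosphatase, were chosen by the size of p among all genes with separate ranges, and not from the list. They had fold changes of -1.10 (SE 0.21) and -1.16 (SE 0.23). The same rule named Depdc1b, Cep89 and 2610318N02Rik, with fold changes of -0.88, -0.82 and -0.61.

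DNA replication genes went the other way. Of 42 tested genes, 40 had a positive fold change, with a median of 0.25, and both 0 g/kg libraries lay above the rest for 19 (45.2%, against 10.8% of all genes). The count was 12 after median-of-ratios scaling (28.6%, against 7.70%) and 15 after quantile scaling (35.7%, against 5.75%). The median was 0.28 in TALL2 and 0.20 in TALL3 at 0 g/kg, while 0.8 g/kg had -0.33 and 0.12 and 0.4 g/kg had 0.18 and 0.01, so TALL2 at 0.8 g/kg stood below the other 5. Without it the median was 0.14, and the count of genes above the rest was 19 (14.9% of all genes). Cdc6, which loads the replicative helicase, had 12.2 and 16.3 FPKM at 0.8 g/kg, 18.8 and 15.5 FPKM at 0.4 g/kg, and 26.5 and 21.3 FPKM at 0 g/kg (fold change 0.58, SE 0.16). Ung, which removes uracil from DNA, had 30.6 to 40.4 FPKM under partial restriction and 67 and 44.4 FPKM at 0 g/kg (fold change 0.56, SE 0.18). Both stood out most in TALL2 at 0 g/kg. Gins1, a helicase subunit, had 16.4 to 26.6 FPKM and then 30.7 and 32.8 FPKM (fold change 0.48, SE 0.18). Rfc2, a subunit of the clamp loader, had 18.5 to 25.0 FPKM and then 29.6 and 27.2 FPKM (fold change 0.32, SE 0.11). In these genes, both 0 g/kg libraries were above the rest. Nucleotide synthesis genes had a median of 0.08 over 28 genes, with 22 positive, and 2 had both 0 g/kg libraries above the rest (7.14%, against 10.8%). Dctd, the deaminase of deoxycytidylate, was 1 of these, with 6.48 to 7.48 FPKM under partial restriction and 11.8 and 9.49 FPKM at 0 g/kg (fold change 0.53, SE 0.12).

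**Figure D3:**
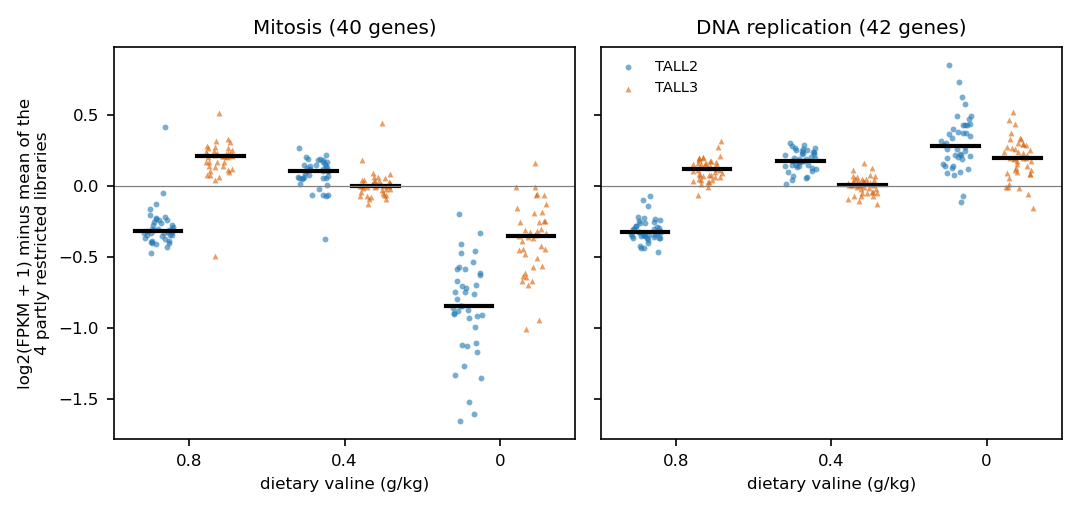
Mitosis genes (left, 40 genes) and DNA replication genes (right, 42 genes) in the 6 libraries: log2(FPKM + 1) minus the gene's mean over the 4 partly restricted libraries, by dietary valine in g/kg. Each point is a gene, TALL2 as circles and TALL3 as triangles, and the bars are medians. The bars for mitosis lie at -0.84 and -0.35 at 0 g/kg and those for replication at 0.28 and 0.20, and TALL2 at 0.8 g/kg is low in both panels.

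Immediate-early genes, whose transcription follows growth factor or stress signals within minutes, were among the largest differences. Of 16 tested, 14 had a positive fold change, and the median of the 16 was 0.85. Both 0 g/kg libraries lay above the rest for 7 (43.8%, against 10.8% of all genes). That count was 7 under the median-of-ratios and quantile scalings too, where the shares of all genes were 7.70% and 5.75%. By library, the median differed. The median was 0.39 in TALL2 and 1.51 in TALL3 at 0 g/kg, so its size depended on the library, and without TALL2 at 0 g/kg the count was 13 (30.5% of all genes). Fos, a subunit of AP-1, had 9.69 and 6.43 FPKM at 0.8 g/kg, 9.74 and 25.2 FPKM at 0.4 g/kg, and 58.8 and 61.3 FPKM at 0 g/kg (fold change 2.32, SE 0.47). Dusp1, a phosphatase that inactivates stress MAP kinases, had 11.4 and 11.9 FPKM at 0.8 g/kg, 12.3 and 23.3 FPKM at 0.4 g/kg, and 62.3 and 65.8 FPKM at 0 g/kg (fold change 2.11, SE 0.38). Fosb, another AP-1 subunit, had 1.53 to 4.03 FPKM under partial restriction and 5.72 and 8.96 FPKM at 0 g/kg. In these 3 genes the highest partly restricted library was TALL3 at 0.4 g/kg, which was also the one with 87.2 FPKM of neutrophil markers. Its part in these values was not tested. Dusp6, a phosphatase specific for ERK, did not single out that library, with 12.5 and 6.11 FPKM at 0.8 g/kg, 9.11 and 9.28 FPKM at 0.4 g/kg, and 18.6 and 24.0 FPKM at 0 g/kg (fold change 1.15, SE 0.29). Without TALL3 at 0.4 g/kg, the fold change of Fos was 2.64 and that of Dusp1 was 2.33, and 11 of the 16 genes lay above the rest (13.4% of all genes did). Sik1, a salt-inducible kinase outside the list, had 2.05 to 4.01 FPKM under partial restriction and 7.60 and 6.97 FPKM at 0 g/kg (fold change 1.18, SE 0.18).

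The NOTCH list gave no common direction, with 7 positive and 12 negative fold changes of 19 and a median of -0.12. Notch1 had 267 and 417 FPKM at 0.8 g/kg, 284 and 253 FPKM at 0.4 g/kg, and 260 and 292 FPKM at 0 g/kg, so the groups overlapped. Hes1, a transcriptional repressor and direct NOTCH target, had 75.7 and 92.1 FPKM at 0.8 g/kg, 71.0 and 68.2 FPKM at 0.4 g/kg, and 161 and 122 FPKM at 0 g/kg (fold change 0.87, SE 0.16). Dtx3, an E3 ligase of the Deltex family, had 16.0 to 23.4 FPKM under partial restriction and 28.1 and 24.0 FPKM at 0 g/kg. Myc, the main growth-promoting target of NOTCH1 in T-ALL, had 156 to 202 FPKM under partial restriction and 161 and 112 FPKM at 0 g/kg, an overlap with a fold change of -0.41 (SE 0.17). Mxd3, a MAX partner with ties to cell division, had 17.7 to 23.2 FPKM and then 12.0 and 17.0 FPKM.

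Among T-cell genes, Tcf7, the transcription factor TCF1, had 1170.2 to 1239.6 FPKM under partial restriction and 1066 and 932 FPKM at 0 g/kg (fold change -0.28, SE 0.08). Cd8b1, the CD8 beta chain, had 60.2 to 73.4 FPKM and then 42.0 and 49.7 FPKM (fold change -0.54, SE 0.15). Both were below the rest without valine. The next pair lay above the rest. Zap70, the kinase that relays the T-cell receptor signal, had 138 to 143 FPKM and then 160 and 191 FPKM (fold change 0.31, SE 0.09). Slfn2, a Schlafen gene linked to T-cell quiescence, had 92.4 to 99.6 FPKM and then 127 and 135 FPKM (fold change 0.46, SE 0.07). Each had groups that did not overlap, which for Slfn2 was a condition of the rule that named it. Over all 26 T-cell markers the median was -0.04, with 2 genes above and 3 below the rest (7.69% and 11.5%, against 10.8% and 5.44% of all genes).

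Regulators of cell death included Bbc3, which encodes the BH3-only protein PUMA, with 4.43 to 6.19 FPKM under partial restriction and 10.7 FPKM in both 0 g/kg libraries (fold change 0.89, SE 0.22). Bcl2, which opposes such proteins, had 5.20 to 10.2 FPKM and then 13.6 and 11.7 FPKM (fold change 0.83, SE 0.26). Both genes were thus higher in the 0 g/kg libraries than in any other, although they act in opposite directions. They were the 2 of 12 genes of the BCL2 family above the rest (16.7%, against 10.8%).

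Chaperone genes gave a small group with separate ranges. Of 15 heat shock genes, 5 had both 0 g/kg libraries above the rest (33.3%, against 10.8%), or 3 after quantile scaling (20%, against 5.75%) and 8 without TALL3 at 0 g/kg (53.3%, against 28.3%), with a median of 0.02 that was -0.02 after median-of-ratios scaling and -0.00089 after quantile scaling. Dnajb1, an HSP70 cochaperone, had 45.5 to 48.8 FPKM under partial restriction and 69.8 and 58.8 FPKM at 0 g/kg (fold change 0.42, SE 0.10). Dnaja1, of the same family, had 11 to 15 FPKM and then 16.8 and 21 FPKM. In the endoplasmic reticulum, Dnajb9, which binds the sensor IRE1, had 4.11 to 5.59 FPKM and then 8.75 and 8.60 FPKM (fold change 0.75, SE 0.18). The 27 genes of the unfolded protein response had a median of 0.05, at -0.15 in TALL2 and 0.25 in TALL3 at 0 g/kg, so the libraries pointed in opposite directions.

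Complex I of the respiratory chain, which the series title names, showed small shifts. Of 36 nuclear-encoded subunits, 32 had a negative fold change, but the median was only -0.08, and 2 had both 0 g/kg libraries below the rest (5.56%, against 5.44% of all genes). The count was 12 after median-of-ratios scaling (33.3%, against 8.67% of all genes) and 8 after quantile scaling (22.2%, against 10.9%). It was 10 without TALL2 at 0.8 g/kg (27.8%, against 9.19%), 7 without TALL2 at 0.4 g/kg (19.4%, against 7.06%) and 18 without TALL2 at 0 g/kg (50%, against 20.2%). The median was -0.04 in TALL2 and -0.13 in TALL3 at 0 g/kg. Ndufb3, an accessory subunit (chr1:58586384-58595964, plus strand), had 29.1 and 32.3 FPKM at 0.8 g/kg, 29.3 and 31.2 FPKM at 0.4 g/kg, and 23.8 and 19.4 FPKM at 0 g/kg (fold change -0.48, SE 0.10, adjusted p = 0.441 with limma). Ndufa5, another accessory subunit, had 27.2 to 29.4 FPKM under partial restriction and 26.9 and 23.1 FPKM at 0 g/kg (fold change -0.18, SE 0.08). These were the 2 subunits below the rest. Ndufs1, the large iron-sulphur subunit, had 51.3 to 53.6 FPKM and then 51.5 and 49.3 FPKM, and Ndufs3, a core subunit, had 26.4 to 27.9 FPKM and then 27.5 and 23.6 FPKM, so both overlapped.

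Other mitochondrial groups were close to complex I. The 36 subunits of complexes II to V had a median of -0.08 with 26 negative, and the 25 genes of the TCA cycle had a median of -0.07 with 20 negative, at 0.02 in TALL2 and -0.18 in TALL3. Atp5k, a subunit of the ATP synthase, had 45.7 to 52.8 FPKM under partial restriction and 43.4 and 34.8 FPKM at 0 g/kg (fold change -0.29, SE 0.11). Mitochondrial ribosomal proteins had a median of -0.03 over 74 genes. Among them Mrps6 had 16.6 to 17.2 FPKM and then 21.5 and 20.6 FPKM, and Mrpl27 had 11.9 to 13.5 FPKM and then 11.1 and 9.88 FPKM, so single members differed in opposite directions. Cytosolic ribosomal protein genes had a median of 0.06 over 74 genes, with 14 above the rest (18.9%, against 10.8%), but they share sequence with many processed copies and their values are uncertain. Rps18, for example, had 38.3 to 44.1 FPKM under partial restriction and 49.6 and 50.9 FPKM at 0 g/kg.

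Neutrophil genes had the largest differences of all lists, and 15 of the 22 marker genes passed the filter. Of these, 8 passed only through the 0 g/kg libraries and had to have a higher mean there. The count of 14 above the rest and the list's median are thus no support. Retnlg, Camp, Ltf and Mmp8, given below, are among the 8. S100a9, the most abundant marker and chosen after its values were seen, had 5.59 and 2.17 FPKM at 0.8 g/kg, 3.50 and 23.8 FPKM at 0.4 g/kg, and 194 and 107 FPKM at 0 g/kg. Lcn2, which binds bacterial siderophores, had 0.616 and 0.437 FPKM at 0.8 g/kg, 0.699 and 4.84 FPKM at 0.4 g/kg, and 43.4 and 20.9 FPKM at 0 g/kg. Retnlg, a resistin-like secreted protein, had 0.994 and 0.185 FPKM at 0.8 g/kg, 0.665 and 2.07 FPKM at 0.4 g/kg, and 17.4 and 13.1 FPKM at 0 g/kg (fold change 3.11, SE 0.33, adjusted p = 0.238 with limma). All 3 followed the same order, with TALL2 above TALL3 at 0 g/kg and TALL3 at 0.4 g/kg next. Camp, an antimicrobial peptide, and Ltf, lactoferrin, had fold changes of 3.07 (SE 0.35) and 2.99 (SE 0.38). Mmp8, the neutrophil collagenase, had a fold change of 1.94 (SE 0.23). Other leading genes of the comparison are also known from myeloid cells: Anxa1 (fold change 2.65), the peptidoglycan receptor Pglyrp1 (2.53), haptoglobin Hp (2.68) and Ifitm6 (2.53). Each was named for a small p among genes with separate ranges, so their height at 0 g/kg is no added result. Pglyrp1, for example, had only 0.435 to 0.510 FPKM under partial restriction, apart from 1.32 FPKM in TALL3 at 0.4 g/kg. Lyz2, lysozyme of macrophages and neutrophils, had 0.799 to 4.79 FPKM under partial restriction and 26.7 and 20.9 FPKM at 0 g/kg. Cd68, a macrophage glycoprotein, had 2.63 to 3.63 FPKM and then 4.80 and 6.24 FPKM.

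Globin genes had the opposite pattern. Hbb-bs, an adult beta globin, had 24.4 and 13.8 FPKM at 0.8 g/kg, 25.0 and 16.1 FPKM at 0.4 g/kg, and 0 and 1.43 FPKM at 0 g/kg. In reads this was 254 and 231, 622 and 177, and 0 and 13, and a count of 0 allows up to 3 reads, or 0.247 FPKM, for counting error only. Hba-a1, an alpha globin, had 40 and 52 reads at 0.8 g/kg, 161 and 71 reads at 0.4 g/kg, and 0 and 7 reads at 0 g/kg. Hbb-bt had 53 and 67, then 218 and 60, then 0 and 2 reads, and Hba-a2 had 14 and 29, then 94 and 22, then 0 and 3 reads. All 4 were thus near 0 in the 0 g/kg libraries and present in every other, although reads may be shared between the near-identical copies of each pair. Of the 18 erythroid markers with deposited FPKM, 13 were tested. Of the 13, 10 had a negative and 3 a positive fold change. Both 0 g/kg libraries lay below the rest for 7 (53.8%, against 5.44% of all genes), the globin genes among them. The summed FPKM of the 18 was 121 and 102 FPKM at 0.8 g/kg, 151 and 139 FPKM at 0.4 g/kg, and 87.0 and 79.7 FPKM at 0 g/kg. This sum includes the globin genes, and the other erythroid markers were not summed apart from them.

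**Figure D4:**
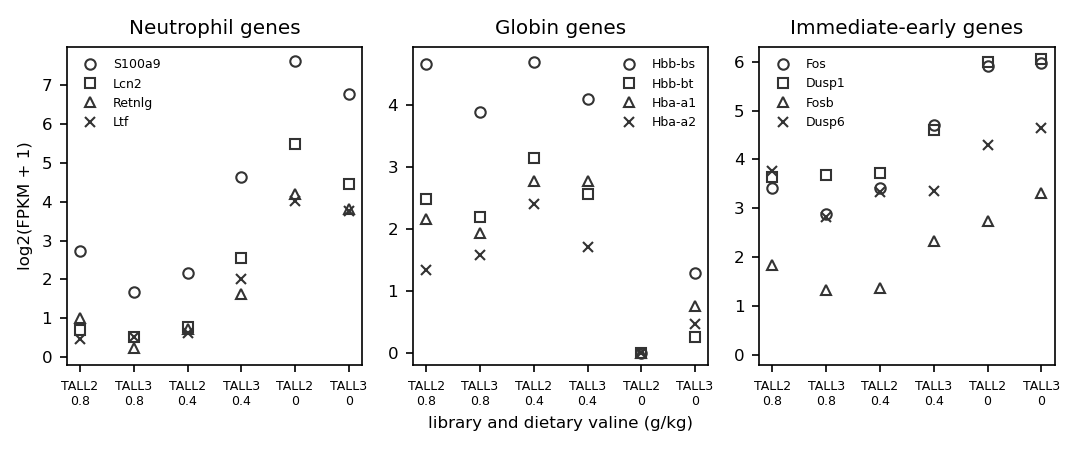
log2(FPKM + 1) of 4 neutrophil genes, 4 globin genes and 4 immediate-early genes in each library, named by TALL number and dietary valine in g/kg. Neutrophil genes are highest in both 0 g/kg libraries and next highest in TALL3 at 0.4 g/kg (S100a9 at 194, 107 and 23.8 FPKM), globin genes are lowest at 0 g/kg, and among the partly restricted libraries Fos and Dusp1 are highest in TALL3 at 0.4 g/kg (25.2 and 23.3 FPKM) while Dusp6 is highest in TALL2 at 0.8 g/kg (12.5 FPKM).

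MHC class II and interferon genes separated the 0 g/kg libraries from each other more than from the rest. Cd74, the invariant chain, had 3.56 and 8.50 FPKM at 0.8 g/kg, 5.34 and 11.6 FPKM at 0.4 g/kg, and 11.5 and 73.0 FPKM at 0 g/kg. H2-Aa, a class II alpha chain, had 1.17 to 3.75 FPKM under partial restriction and 3.75 and 13.3 FPKM at 0 g/kg. The 26 interferon response genes all had a positive fold change with a median of 0.26, but 24 and 21 were positive under the median-of-ratios and quantile scalings. Of the 26, 0 had both 0 g/kg libraries above the rest, where 10.8% of all genes did. The median was -0.26 in TALL2 and 0.97 in TALL3. Oasl2, an interferon-induced gene, had 3.32 to 8.26 FPKM under partial restriction and 7.62 and 19.4 FPKM at 0 g/kg. Only TALL3 of the pair at 0 g/kg was high in Cd74 and Oasl2.

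The 0.4 and 0.8 g/kg diets were also compared with 0 g/kg one at a time. These comparisons share the 0 g/kg libraries, so their likeness is no separate evidence. limma called 0 genes in each, with 354 higher and 173 lower against 0.4 g/kg at an unadjusted p under 0.05 (3.56% and 1.74%), and 351 higher and 175 lower against 0.8 g/kg (3.53% and 1.76%). The voom counts were 383 and 158 against 0.4 g/kg, and 334 and 166 against 0.8 g/kg, with 0 called. The list medians against 0.4 and 0.8 g/kg were -0.64 and -0.54 for mitosis, 0.33 and 0.45 for ATF4 targets, 0.15 and 0.33 for DNA replication, and 0.72 and 1.23 for immediate-early genes. Asns had fold changes of 1.39 and 2.12, Ppp1r15a of 1.63 and 2.22, and Cenpf of -1.30 and -1.31.

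No gene was called between the partly restricted diets either. limma called 0 genes for 0.4 against 0.8 g/kg, with 27 higher and 59 lower at an unadjusted p under 0.05 (0.272% and 0.593%), and voom called 0, with 30 and 77. These 86 genes, where 497 would be expected with no difference, depended on the library: without TALL2 at 0.8 g/kg there were 148 higher and 162 lower, and without TALL3 at 0.8 g/kg 179 higher and 95 lower. Cd8a, the CD8 alpha chain, had 7.94 and 2.89 FPKM at 0.8 g/kg, 53.7 and 22.7 FPKM at 0.4 g/kg, and 18.4 and 9.79 FPKM at 0 g/kg, so both 0 g/kg libraries lay above both 0.8 g/kg ones and below both 0.4 g/kg ones. Rmi2, which helps dissolve DNA crossovers, had 11.5 and 13.2 FPKM at 0.8 g/kg, 17.8 and 18.2 FPKM at 0.4 g/kg, and 16.9 and 16.8 FPKM at 0 g/kg. Klhl23 had 10.7 and 9.24 FPKM at 0.8 g/kg, 15 and 15.8 FPKM at 0.4 g/kg, and 14.9 and 12.2 FPKM at 0 g/kg. In Rmi2 both 0 g/kg libraries were nearer to 0.4 g/kg, while in Klhl23 they lay between the diets. Lower at 0.4 than at 0.8 g/kg were Trp53bp2, a p53-binding protein, with 24.1 and 24.2 FPKM at 0.8 g/kg, 18.5 and 19.2 FPKM at 0.4 g/kg, and 19.6 and 19.7 FPKM at 0 g/kg, and Slc2a9, a urate carrier, with 10.6 and 11.5, then 7.79 and 6.62, then 11.4 and 10.02 FPKM. Gm973 had 9.68 and 10.8 FPKM at 0.8 g/kg, 4.53 and 2.66 FPKM at 0.4 g/kg, and 3.84 and 6.23 FPKM at 0 g/kg. Trp53bp2 at 0 g/kg thus lay near its 0.4 g/kg values, and Slc2a9 near its 0.8 g/kg values.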

How the data were processed

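RNA was purified on RNeasy columns and made into directional libraries, per the labels' protocols. STAR and edgeR, with mm10 and hg19 as builds, are listed in the submitters' processing notes, which give no versions. The authors deposited FPKM per gene and library. Which gene model and counter they used is not given in the sources used here. All mouse columns were used (0 unassigned), and the human table was not analysed here.

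Genes averaging 1 FPKM or more in the 8 libraries were tested. The test was limma (3.58.1, under R 4.3.3) with a trend of variance on mean, applied to log2(FPKM + 1), the 4 diets as groups, and Benjamini-Hochberg adjustment at 0.05, after a test on simulated data. Whole reads, recovered from the FPKM steps, served voom. At 14222895 to 37687253 reads, 2 libraries per diet limited precision more than depth did. Symbols absent from the table (318) came from a reference list. Coordinates are from GENCODE M21 and sequences from RefSeq, both GRCm38, the assembly of mm10.

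Named genes were, per direction, up to 10 by the smallest p among those with at least 5 FPKM and separate ranges, up to 3 for each other comparison, up to 4 per list, and fixed pathway genes. Members and lists were chosen with earlier results of these data known. Alternatives changed the pseudocount, filter, scaling, trend, grouping, replicate block, reads and libraries.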

Additional observations from a re-analysis of the deposited data

Results flagged for a closer look

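In 11 of 106 checked values, 1 of the 4 partly restricted libraries lay far from the other 3, past the 95% limit of Dixon's test on the log2(FPKM + 1) scale. Chance alone marks about 1 in 20 such groups. TALL3 at 0.4 g/kg was the highest for the neutrophil and myeloid genes Ltf (3.03 FPKM, others 0.374 to 0.534), Lcn2 (4.84 FPKM, others 0.437 to 0.699), Anxa1 (2.77 FPKM, others 0.673 to 0.815) and Pglyrp1 (1.32 FPKM, others 0.435 to 0.510). The summed neutrophil markers were 87.2 FPKM in that library and 14.0 to 16.5 FPKM in the others. The same library was highest for Dusp1 (23.3 FPKM, others 11.4 to 12.3) and Atf3 (1.5 FPKM, others 0.0255 to 0.133), for Atp5k (52.8 FPKM, others 45.7 to 46.7) and for Lamtor2 (58.2 FPKM, others 48.8 to 49.8). TALL2 at 0.4 g/kg was highest for Stc2 (1.83 FPKM, others 0.302 to 0.349) and Bcat2 (30.4 FPKM, others 24.9 to 25.7).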

How the results depend on the processing

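The number of genes called was 0 in each of the 4 comparisons under every alternative, leave-one-library-out fits included (range 0 to 0), with 1 exception. With the replicate block, 1 gene was called between 0.4 and 0.8 g/kg, Cd8a (2.61, adjusted p = 0.0176 with limma), and 0 with crossed numbers, an alternative added after seeing the data. The block gave 0 calls in the other comparisons. For 0 g/kg against partial restriction it gave 595 higher and 251 lower at an unadjusted p under 0.05 with limma, against 448 and 213 without it. Libraries with the same TALL number deviated together between some diets (r = 0.743 between 8 and 0.8 g/kg) and not between others (-0.174 between 0.8 and 0.4 g/kg). Between 0 g/kg and the others, r was 0.363 for 0.8 g/kg, 0.425 for 0.4 g/kg and 0.566 for 8 g/kg. The numbers are thus not shown to pair the libraries. The smallest adjusted p for 0 g/kg against partial restriction ran from 0.0603 to 0.570 over the alternatives. Of 1838 values of 98 named genes, 1827 kept their direction without being called and 10, from 7 genes, changed sign. Many of these genes were named for a small p or for separate ranges. Where the ranges are separate, leaving out a library cannot turn the sign, so this share is no measure of stability. Leaving out each library in turn gave -0.28 to 1.62 for Sesn2, -0.018 to 0.21 for Bcat2, -0.020 to 0.37 for Bckdk, -0.073 to 0.053 for Vars2, -0.19 to 0.025 for Ndufs3, -0.068 to 0.18 for Eif2ak4 and -0.28 to 0.043 for Notch1. The sign turned without TALL3 at 0 g/kg for Sesn2 and Ndufs3, without TALL2 at 0 g/kg for Bcat2 and Eif2ak4, without TALL2 at 0.8 g/kg for Bckdk, without TALL3 at 0.8 g/kg for Notch1, and without each of 3 libraries for Vars2 (0.053 without TALL3 at 0.8 g/kg, 0.0095 without TALL2 at 0.4 g/kg and 0.026 without TALL2 at 0 g/kg). Eif2ak4 was -0.047 after quantile scaling. The cause was not tested. Differences of low genes depend on the pseudocount: the neutrophil median ran from 1.76 at a pseudocount of 5 to 4.46 at 0.1. Leaving out 1 library of a pair assumes that the lone library varies like the other groups. With 2 libraries at 0 g/kg, list medians within the spread of those libraries are no sign of a direction.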
